A study of Mus musculus with 9 samples.

Results

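Cnp, Dnajc7 and Nkiras2 lie side by side on mouse chromosome 11, and Dnajc7 lies on the minus strand over the ends of its neighbours, which are both on the plus strand. They are 3 of the 25965 gene entries of a count table from sciatic nerve. The entries were chosen by gene name, with counts of these same libraries already known: Dnajc7 had stood among the entries with the smallest p in PINCH1 mutants against controls. The other comparisons share its PINCH1 or its control libraries, so values of the members are given as a description, without printed p-values, in all 3 comparisons. Whether a member passed a threshold is also stated, and nothing is read from it.

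The nerves came from mice on a C57BL/6 background that were PINCH1 mutants, PINCH2 mutants or control littermates, about 2 weeks old. The labels give both postnatal day 15 and postnatal day 14 for that age. Each group had 3 libraries, each from a pool of 4 nerves of 1 male and 1 female stripped of their epineurium. The sources used here give neither the alleles of the mutants nor the cells in which PINCH1 or PINCH2 was altered. PINCH1 and PINCH2, encoded by Lims1 and Lims2, are LIM-domain adaptors that join integrin-linked kinase to integrin adhesions.

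Cnp encodes CNPase, a cyclic nucleotide phosphodiesterase of the noncompact, cytoplasm-containing parts of myelin, made by Schwann cells in nerve and by oligodendrocytes in the central nervous system. Dnajc7 encodes a co-chaperone with a J domain and tetratricopeptide repeats that acts with Hsp70 and Hsp90. Nkiras2 encodes a kappaB-Ras protein, a small Ras-like protein known to bind inhibitors of NF-kB and to restrain Ral GTPases.

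Library totals ran from 957828 to 1204964 counts, and 9674 to 11240 entries had at least 1 count. The targeted genes had too few counts to check the labels. Lims1 had 0 to 3 counts in PINCH1 mutants, 0 to 9 in PINCH2 mutants and 3 to 7 in controls, and Lims2 had 1 to 5, 1 to 5 and 1 to 9 counts in the same groups. Of the oligodendrocyte markers, Olig1, Olig2 and Opalin had no count in any library, and the 5 together reached at most 5.17 CPM (read counts relative to library size, TMM-scaled between libraries). Of 4 neuron markers, Snap25, Syt1 and Rbfox3 also had no count. The other, Nefl, had means of 0 CPM in PINCH1 mutants, 0.61 CPM in PINCH2 mutants and 1.92 CPM in controls. Low counts of a few markers do not show that a cell type was absent. In either mutant the 6 myelinating Schwann cell markers lay below 0 in log2 fold change against controls, with medians of -0.59 in PINCH1 and -0.31 in PINCH2 mutants, and edgeR called 0 of them. At an unadjusted p under 0.05, 2 of the 6 were lower in PINCH1 and 1 in PINCH2 mutants, against 4.09% and 2.60% of all entries. Of 5 nonmyelinating Schwann cell markers 3 were tested, with medians of -1.88 in PINCH1 and -0.06 in PINCH2 mutants and 0 called by edgeR. At an unadjusted p under 0.05, 2 of the 3, Scn7a and Cdh2, were lower in PINCH1 mutants, against 4.09% of all entries. The other tested marker, Ngfr, was at 0.05 (SE 0.80) there. Cdh2 had few counts, with 0.38 ± 0.66 CPM in PINCH1 mutants and 6.96 ± 8.76 CPM in controls (SD, n = 3). The summed level of the 5 nonmyelinating markers was 24.6 to 50.9 CPM in PINCH1 mutants, 47.2 to 63.6 CPM in PINCH2 mutants and 37.2 to 155 CPM in controls. The part of these shifts in the values of the members was not tested.

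The table places all 3 on GRCm38, with the spans that GENCODE M21 gives. Cnp (ENSMUSG00000006782) spans 100574904 to 100591729 on the plus strand, Dnajc7 (ENSMUSG00000014195) spans 100582818 to 100620168 on the minus strand, and Nkiras2 (ENSMUSG00000017837) spans 100619244 to 100627607 on the plus strand. The span of Dnajc7 overlaps that of Cnp by 8912 bp and that of Nkiras2 by 925 bp, but little of this is exon on both strands. Cnp and Dnajc7 share 154 exon bases, which make up 4.23% of the 3639 exon bases of Cnp. The protein-coding transcript of Cnp takes no part in this, since it ends 1089 bp short of Dnajc7. The shared bases belong to the last exon of a noncoding Cnp transcript of 3 exons and to coding exon 7 of the 14-exon transcript of Dnajc7. Dnajc7 and Nkiras2 share 287 exon bases, between the first exon of that Dnajc7 transcript and the first, untranslated exon of a coding transcript of Nkiras2. The last 65 bases of Nkiras2 are also shared, with the 3′ end of Zfp385c on the minus strand. In all, 9.07% of the exon bases of Dnajc7 and 9.84% of those of Nkiras2 are exonic on the other strand as well.

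**Figure D1:**
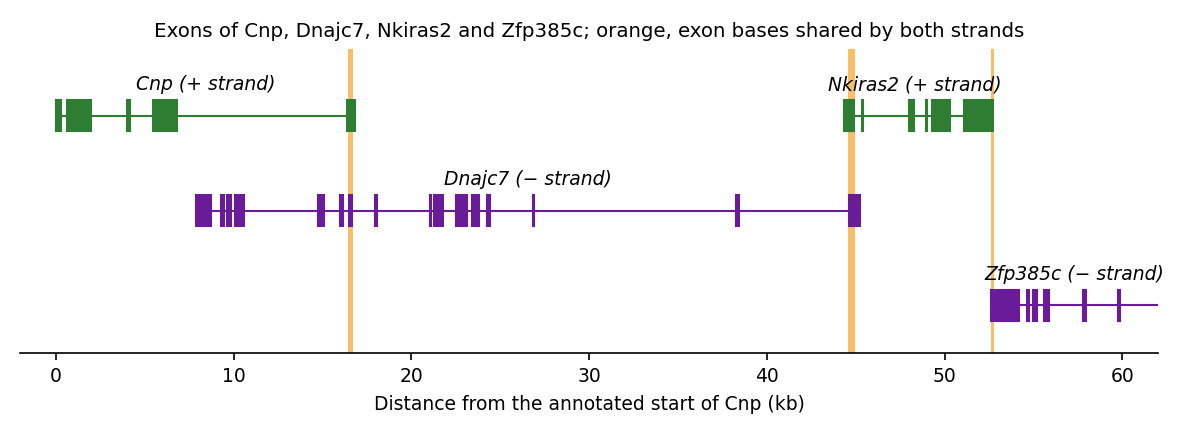
Exons (boxes) and spans (lines) of Cnp, Dnajc7, Nkiras2 and Zfp385c by distance in kb from the annotated start of Cnp, green for the plus and purple for the minus strand; Zfp385c goes on past the right edge. Orange bands mark exon bases annotated on both strands, which are 154 bp for Cnp and Dnajc7, 287 bp for Dnajc7 and Nkiras2 and 65 bp for Nkiras2 and Zfp385c.

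The sequence shared by Cnp and Dnajc7 is shown because a read from it can be placed in either entry when the strand is not used. It lies at chr11:100591412-100591565 (GRCm38) and has a GC content of 46.1%. Capitals mark the 154 shared bases and small letters the 20 transcript bases on either side, all read from the GENCODE M21 transcripts, 5′ to 3′ along each transcript. In capitals, each line is the reverse complement of the other.
Dnajc7, 14-exon transcript, minus strand: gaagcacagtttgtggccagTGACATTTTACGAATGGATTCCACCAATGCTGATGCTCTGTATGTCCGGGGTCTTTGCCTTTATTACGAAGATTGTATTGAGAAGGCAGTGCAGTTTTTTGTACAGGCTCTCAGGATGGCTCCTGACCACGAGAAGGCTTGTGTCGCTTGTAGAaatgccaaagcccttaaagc
Cnp, 3-exon noncoding transcript, plus strand: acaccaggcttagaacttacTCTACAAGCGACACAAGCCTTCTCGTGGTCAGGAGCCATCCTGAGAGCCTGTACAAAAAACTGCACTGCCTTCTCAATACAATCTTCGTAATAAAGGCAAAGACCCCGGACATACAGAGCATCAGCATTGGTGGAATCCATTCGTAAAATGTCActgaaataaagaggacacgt

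At the other end of Dnajc7, the shared exon holds the start of its coding sequence, at chr11:100619575-100619604 on the minus strand. The first 30 coding bases are shown with the start codon in capitals, since they lie within the untranslated first exon of Nkiras2 on the plus strand.
Dnajc7, start of the coding sequence: ATGgcggctaccgcggagtgcgatgtggta

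In RefSeq (GRCm38.p6), the outer start of Dnajc7 and the start of Nkiras2 are 3328 bp apart and point away from each other, so the overlap at this end rests on the longer GENCODE transcripts. The sources used here do not say whether the libraries kept the strand or whether the authors' counting used it. The reads behind each count thus cannot be divided between a gene and the gene on its other strand, and the levels below are those of the entries under these names. This limit also holds for the other entries named in this report. Gm15541, an entry over Prx on the other strand, had means of 8608 CPM in PINCH1 mutants, 10132 CPM in PINCH2 mutants and 6932 CPM in controls. Under the name of Prx the means were 421, 521 and 608 CPM in the same groups, so these entries differed from controls in opposite directions. The strand of the reads was not tested.

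All 3 entries were well counted and passed the filter on low counts that left 4738 entries. By mean level in controls, Cnp stood at rank 204 of the 25965 entries, Dnajc7 at rank 326 and Nkiras2 at rank 1112. Per kilobase of annotated exon, the level of Cnp was 207 ± 7.43 CPM in PINCH1 mutants, 217 ± 24.1 in PINCH2 mutants and 224 ± 2.75 in controls (SD, n = 3 each). On the same per-kilobase scale Dnajc7 was at 58.9 ± 2.70, 89.2 ± 16.7 and 113 ± 44.2 CPM in these groups. Nkiras2 was at 29.3 ± 6.28, 32.03 ± 3.77 and 26.3 ± 4.09 CPM. The order Cnp, Dnajc7, Nkiras2 thus held in the mean of every group, and in every library the count of Cnp was above that of Dnajc7 and that of Dnajc7 above that of Nkiras2.

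The entry of Cnp, the myelin gene of the locus, had group means from 752 to 817 CPM, and equal levels in the genotypes were not shown. It had 769.8, 766 and 721 CPM in PINCH1 mutants, 889, 721 and 763 CPM in PINCH2 mutants and 805, 823 and 822 CPM in controls, in the order of their replicate numbers. The controls lay close together, the PINCH1 mutants lay just below all of them, and the PINCH2 mutants lay on both sides. The mean was 752 ± 27.1 CPM in PINCH1 mutants, 791 ± 87.5 CPM in PINCH2 mutants and 817 ± 10.02 CPM in controls (SD, n = 3). The gap between PINCH1 mutants and controls depended on the scaling between libraries. Per library total, without TMM, PINCH1 mutants ran from 705 to 799 CPM and controls from 746 to 841 CPM, so that the groups overlapped.

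Dnajc7, the co-chaperone entry, was the member that varied most, both between groups and among controls. It had 330, 243 and 338 counts in PINCH1 mutants, 472, 410 and 457 counts in PINCH2 mutants and 759, 386 and 554 counts in controls. Scaled, these were 301, 276 and 282 CPM in PINCH1 mutants, 499.7, 343 and 459 CPM in PINCH2 mutants and 785, 364 and 496 CPM in controls. Every PINCH1 mutant library lay below every library of the other groups, while PINCH2 mutants and controls overlapped and control replicate 1 stood above all others. The PINCH1 mutants were also the most alike, with an SD of 4.58% of their mean against 18.7% in PINCH2 mutants and 39.2% in controls. The exact 95% Poisson interval of the lowest count, 243, ran from 213 to 276 counts before scaling. Scaled as the CPM values are, this interval was wider than the 276 to 301 CPM of the PINCH1 mutants.

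Nkiras2 had 134, 70 and 135 counts in PINCH1 mutants, 122, 134 and 102 counts in PINCH2 mutants and 90, 85 and 122 counts in controls. Its mean was 105 ± 22.5 CPM in PINCH1 mutants, 115 ± 13.5 CPM in PINCH2 mutants and 94.1 ± 14.6 CPM in controls (SD, n = 3). The groups overlapped, with the lowest library among the PINCH1 mutants and the highest among the PINCH2 mutants.

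**Figure D2:**
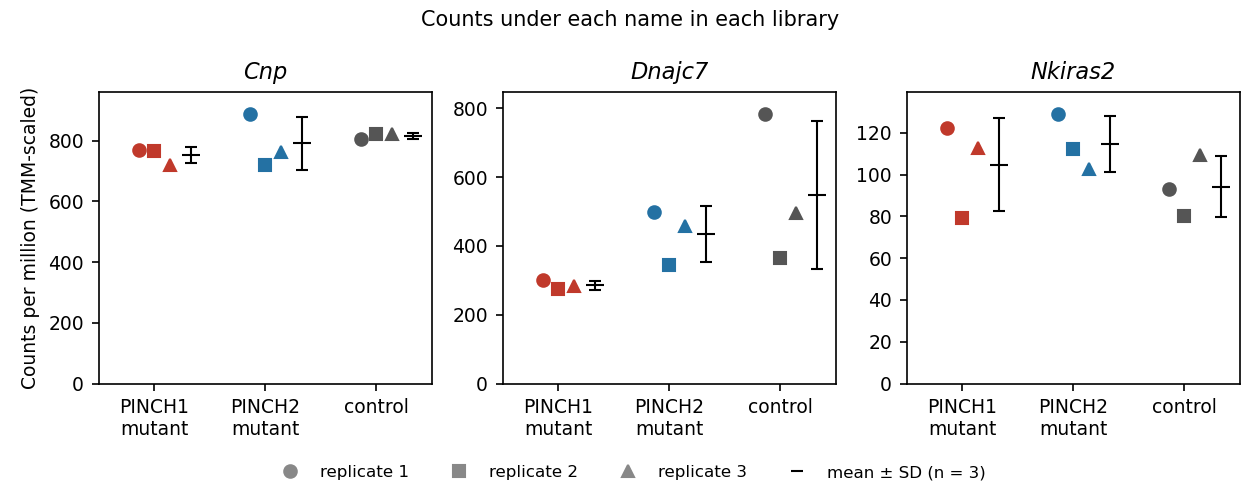
CPM (TMM-scaled) of Cnp, Dnajc7 and Nkiras2 in each library (points; shape gives the replicate number) with mean and SD of 3 libraries (bars) for PINCH1 mutants, PINCH2 mutants and controls. Dnajc7 lay at 276 to 301 CPM in PINCH1 mutants, below the 343 to 499.7 CPM of PINCH2 mutants and the 364 to 785 CPM of controls. The group means ran from 752 to 817 CPM for Cnp and from 94.1 to 115 CPM for Nkiras2.

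The PINCH2 mutants were compared with the same controls on which the members were chosen, so nothing is read from the counts of members called. None of the 3 passed an adjusted p of 0.05 in edgeR's quasi-likelihood test, in DESeq2 or in limma-voom. With edgeR 1 entry in all passed, or 0.0211% of those tested. None of the 3 had an unadjusted p under 0.05 either, against 4.26% of all entries, and none had groups without overlap, against 9.05% of all entries. The log2 fold change of Dnajc7 was -0.34 (SE 0.22, 95% interval -0.80 to 0.12), an interval from 0.576 to 1.09 of the control level. It rested on 1 library, and without control replicate 1 it was 0.0048. For Cnp the log2 fold change was -0.05 (SE 0.15, 95% interval -0.35 to 0.26) and for Nkiras2 it was 0.28 (SE 0.22, 95% interval -0.18 to 0.75). These intervals include no change and do not show that the groups were alike.

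In PINCH1 mutants against controls, the log2 fold change was -0.94 (SE 0.22) for Dnajc7, -0.12 (SE 0.15) for Cnp and 0.16 (SE 0.23) for Nkiras2. Dnajc7 thus stood at 0.523 of its control level, on a log2 scale farther from 0 than 92.2% of all tested entries. Leaving out 1 library at a time gave -1.16 to -0.58 for Dnajc7, the smaller size without control replicate 1. For Nkiras2 it gave 0.04 without PINCH1 mutant replicate 1 to 0.32 without PINCH1 mutant replicate 2. None of the 3 members was among the 3 entries, 0.0633% of those tested, that passed the adjusted threshold with edgeR. Dnajc7 was among the 15 of 15595 entries that passed with no filter on low counts. It was also among the 16 that passed with at least 1 CPM in at least 3 libraries and the 9 that passed without control replicate 2. Dnajc7 and Cnp were lower with no overlap between groups, as were 7.49% of all entries. Since the members were chosen with this comparison in view, nothing is read from these counts.

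In PINCH1 against PINCH2 mutants, the log2 fold change was -0.60 (SE 0.22) for Dnajc7, -0.07 (SE 0.15) for Cnp and -0.12 (SE 0.22) for Nkiras2. Leaving out 1 library at a time gave -0.73 to -0.49 for Dnajc7. None of the members was among the 4 entries, 0.0844% of those tested, that passed with edgeR, and Dnajc7 was the member that was lower without overlap, as were 5.57% of all entries. The comparisons share libraries, so the values of the 3 comparisons are not independent of each other.

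**Figure D3:**
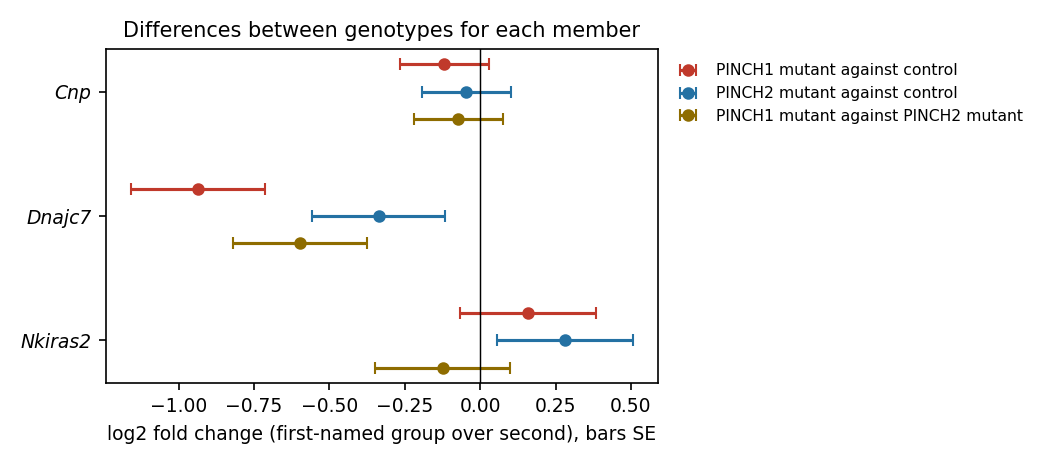
log2 fold change of each member (points) with its standard error (bars) from edgeR, for PINCH1 mutants against controls, PINCH2 mutants against controls and PINCH1 against PINCH2 mutants. The points of Dnajc7 lie at -0.94, -0.34 and -0.60, and those of Cnp and Nkiras2 lie between -0.12 and 0.28.

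Ratios of counts within a library do not depend on the scaling between libraries. For each count of Cnp there were 0.391, 0.36 and 0.391 counts of Dnajc7 in PINCH1 mutants, 0.562, 0.476 and 0.602 in PINCH2 mutants and 0.974, 0.442 and 0.603 in controls. The PINCH1 mutants lay below all other libraries, and control replicate 1, where Dnajc7 made up 49.3% of the counts of the pair (exact Clopper-Pearson 95% interval 46.8% to 51.9%), lay above all others. As means of log2 ratios (with 0.5 added to each count), PINCH2 mutants were at -0.88 ± 0.17 and controls at -0.65 ± 0.57 (SD, n = 3), a difference of -0.23. Without control replicate 1 the difference was 0.07.

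For each count of Nkiras2 there were 2.46, 3.47 and 2.504 counts of Dnajc7 in PINCH1 mutants, 3.87, 3.06 and 4.48 in PINCH2 mutants and 8.43, 4.54 and 4.54 in controls. Both groups of mutants lay below the controls, the PINCH2 mutants by a narrow margin, and PINCH1 and PINCH2 mutants overlapped. As log2 ratios, PINCH2 mutants were at 1.91 ± 0.28 and controls at 2.47 ± 0.51 (SD, n = 3), a difference of -0.57, or -0.27 without control replicate 1. The PINCH1 mutants were at 1.47 ± 0.28. For each count of Cnp, Nkiras2 had 0.159, 0.104 and 0.156 counts in PINCH1 mutants, 0.145, 0.155 and 0.134 in PINCH2 mutants and 0.116, 0.0974 and 0.133 in controls. The PINCH2 mutants lay above the controls in this ratio, from 0.134 against 0.133 upwards, and the PINCH1 mutants overlapped with both.

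**Figure D4:**
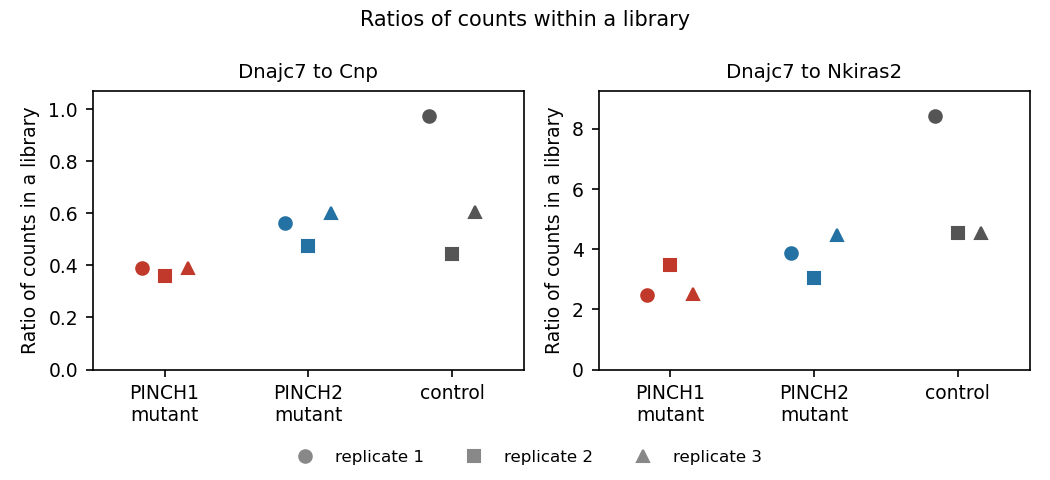
Counts of Dnajc7 divided by counts of Cnp (left) and by counts of Nkiras2 (right) in each library (points; shape gives the replicate number) for PINCH1 mutants, PINCH2 mutants and controls. Control replicate 1 stands highest in both, at 0.974 and 8.43, and the PINCH1 mutants lie at 0.36 to 0.391 on the left and 2.46 to 3.47 on the right.

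Cnp was set beside other genes of peripheral myelin. Of 23 listed genes 21 were in the table, all with enough counts to be tested, and 0 of 21 passed in either mutant with edgeR, DESeq2 or limma-voom. At an unadjusted p under 0.05, 8 were lower and 0 higher in PINCH1 mutants against controls, where 4.09% of all entries were lower, and 4 were lower and 0 higher in PINCH2 mutants against controls, where 2.60% were lower. Below 0 were 17 of 21 in PINCH1 mutants, with a median log2 fold change of -0.26 against -0.02 for all entries, and 15 of 21 in PINCH2 mutants, with a median of -0.26 against 0.00404. Cnp, at -0.12 and -0.05, was nearer to 0 than these medians, and 15 of the 21 lay below it in each comparison.

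Of the myelin genes with the most counts, Mbp, the myelin basic protein gene, was at 1986 ± 332 CPM in PINCH1 mutants, 2071 ± 399 CPM in PINCH2 mutants and 3029 ± 498 CPM in controls (SD, n = 3), with no overlap between either mutant and controls. Its log2 fold change was -0.61 (SE 0.17, edgeR adjusted p = 0.373) in PINCH1 and -0.55 (SE 0.17, edgeR adjusted p = 0.999) in PINCH2 mutants. The tetraspan protein genes Pmp22 and Mal stood at -0.26 (SE 0.13) and -0.30 (SE 0.15) in PINCH1 mutants against controls. Mag, an adhesion protein gene of noncompact myelin like Cnp, stood at 0.12 (SE 0.32) in PINCH1 mutants and 0.19 (SE 0.31) in PINCH2 mutants, and Cldn19, a tight junction gene of those parts, at -0.09 (SE 0.18) and 0.06 (SE 0.18). Gjb1, the gap junction gene of noncompact myelin, had few counts (10.9 CPM on average over all libraries) and was at -2.20 (SE 0.63, edgeR adjusted p = 0.374) in PINCH1 mutants and 0.28 (SE 0.52) in PINCH2 mutants. Also below 0 in PINCH1 mutants were Prx at -0.53 (SE 0.18), Drp2 at -0.62 (SE 0.21) and Nfasc at -1.55 (SE 0.43). Gm15541, the entry over Prx on the other strand, went the other way, with 8608 CPM in PINCH1 mutants and 6932 CPM in controls. With the strand of the reads unknown, a lower level of Prx RNA was thus not shown. Gldn at 0.27 (SE 0.40) and Dag1 at 0.35 (SE 0.36) were above 0 there.

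**Figure D5:**
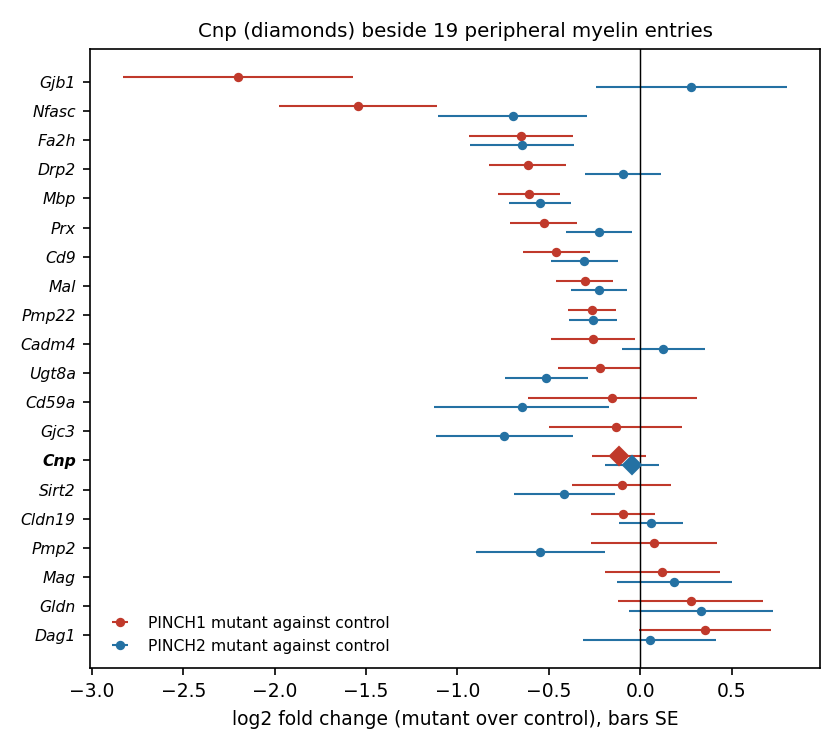
log2 fold change (points, with SE as bars) of Cnp and 19 of the 21 peripheral myelin entries in PINCH1 mutants (red) and PINCH2 mutants (blue) against controls, sorted by the first. Cnp (diamonds), at -0.12 and -0.05, has 13 of these 19 entries below it in each comparison.

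As a percentage of the summed counts of the 21 myelin entries, which do not include Cnp, the counts of Cnp came to 5.35%, 5.998% and 5.598% in PINCH1 mutants and 7.11%, 5.02% and 5.20% in PINCH2 mutants, against 5.003%, 4.62% and 4.36% in controls. Every mutant library lay above every control in this ratio, the closest pair being 5.02% in PINCH2 mutant replicate 2 and 5.003% in control replicate 1. The ratio was formed after the values were seen and was not tested. The summed level of the 21 entries was 12770 to 14376 CPM in PINCH1 mutants, 12514 to 14656 CPM in PINCH2 mutants and 16096 to 18847 CPM in controls. In whole nerve, fewer cells of a type and less RNA per cell cannot be told apart.

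Dnajc7 was set beside 32 genes of the Hsp70 and Hsp90 chaperones and their partners, of which 13 had enough counts. In either mutant against controls, 0 of 13 passed with edgeR, DESeq2 or limma-voom. In PINCH1 mutants 5 of 13 were below 0, with a median log2 fold change of 0.18, and none lay as low as Dnajc7. In PINCH2 mutants 8 of 13 were below 0, with a median of -0.12, and 4 lay lower than Dnajc7. At an unadjusted p under 0.05 there were 0 of 13 in PINCH1 mutants, against 6.37% of all entries, and 1 of 13 in PINCH2 mutants, against 4.26%. That one was Hspa8, the constitutive Hsp70, at -0.97 (SE 0.29, edgeR adjusted p = 0.999). Stub1, a ubiquitin ligase that binds both chaperones and had the most counts of the list, was at 989.8 ± 164 CPM in PINCH1 mutants, 778 ± 17.9 CPM in PINCH2 mutants and 869 ± 51.9 CPM in controls (SD, n = 3). Hsp90ab1, a cytosolic Hsp90, was at 181 ± 10.5, 173 ± 6.34 and 175 ± 23.9 CPM in these groups. The endoplasmic reticulum Hsp90 gene Hsp90b1 stood at -0.12 (SE 0.22) and the J-domain co-chaperone gene Dnaja1 at 0.18 (SE 0.21) in PINCH1 mutants against controls.

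Nkiras2 was set beside 24 genes of NF-kB and Ral regulation, of which 8 had enough counts and 0 of 8 passed in either mutant with edgeR, DESeq2 or limma-voom. The median log2 fold change was -0.24 in PINCH1 mutants, with 5 of 8 below 0, and -0.27 in PINCH2 mutants, with 7 of 8 below 0. At an unadjusted p under 0.05 there was 1 of 8 in PINCH1 mutants, against 6.37% of all entries: the IkB-beta gene Nfkbib at -0.56 (SE 0.24, edgeR adjusted p = 0.733). There were 0 of 8 in PINCH2 mutants, against 4.26%. Nkiras2 stood above 7 of these 8 in PINCH1 mutants and above 8 of 8 in PINCH2 mutants. The entry of its paralogue Nkiras1 had the higher level per library, with 1197 ± 119 CPM in PINCH1 mutants, 1040 ± 40.0 CPM in PINCH2 mutants and 1080 ± 92.6 CPM in controls (SD, n = 3). The strand of the reads behind it is not known either, so these levels do not rank the paralogues. Ikbkg, the regulatory subunit of the IkB kinase, was at 0.10 (SE 0.29) in PINCH1 mutants and -0.33 (SE 0.29) in PINCH2 mutants, and Tab2, an adaptor of the kinase upstream of it, at -0.19 (SE 0.41) and -0.20 (SE 0.41).

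The next entries on the chromosome were taken within 50 kb of the 3 members. Zfp385c, a zinc finger gene that ends within Nkiras2, had 20.1 ± 2.31 CPM in PINCH1 mutants, 23.8 ± 4.56 CPM in PINCH2 mutants and 19.6 ± 5.19 CPM in controls (SD, n = 3), with log2 fold changes of 0.02 (SE 0.37) and 0.28 (SE 0.36) against controls. Acly, the ATP citrate lyase gene that supplies acetyl-CoA for lipid synthesis, had 32.8 ± 12.7 CPM in PINCH1 mutants, 17.9 ± 3.58 CPM in PINCH2 mutants and 37.5 ± 5.94 CPM in controls. Its log2 fold change was -0.18 (SE 0.34) in PINCH1 mutants and -1.07 (SE 0.36, edgeR adjusted p = 0.999) in PINCH2 mutants. Ttc25, which ends just before Cnp, had 0 to 9 counts in any library and was not tested.

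Across the 9 libraries, Pearson's r of log2 CPM was 0.56 between Cnp and Dnajc7 (Spearman's rho 0.62), 0.05 between Cnp and Nkiras2 (rho 0) and 0.04 between Dnajc7 and Nkiras2 (rho 0.1), as a description over libraries that share 3 genotypes. The 5 entries most like Dnajc7 among the 4738 were Eif4b (r = 0.97), Gab1 (0.96), 2310008H04Rik (0.91), Zfp248 (0.91) and Gm20650 (0.91), which are on chromosomes other than 11. For Cnp they were Fam13b (0.98), Galntl1 (0.898), Hist1h1c (0.88), 1700021J08Rik (0.87) and Aatk (0.87). For Nkiras2 they were 6330403L08Rik (0.98), Gm15541 (0.97), Gm15419 (0.97), Gm4793 (0.97) and Vasn (0.97). The 5 entries most like Nkiras2 all overlap the span of a gene on the opposite strand, which is Pdgfa, Prx, Col4a2, Nav1 and Coro7 in the same order, as do 54.1% of all tested entries.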

How the data were processed

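Per the labels' protocols, TruSeq libraries were made from total RNA of 9 nerve pools. The submitters' processing notes name HISAT2 2.0.5, cutadapt 1.9.1, Trim Galore 0.4.2 and GRCm38. The authors' deposited table holds whole-number read counts per gene entry, unscaled. All sample columns were used, and gene identifiers on several lines were kept as separate entries.

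After filterByExpr and TMM scaling, edgeR 4.0.16 (R 4.3.3) fitted 1 quasi-likelihood model to all 9 libraries with genotype as its term. P-values were adjusted by Benjamini-Hochberg over 4738 entries, with a threshold of 0.05. SE is the absolute log2 fold change over the square root of F. limma 3.58.1 and DESeq2 1.42.0 served as alternatives. Log2 CPM for correlations used a prior count of 2. The procedure was tested on simulated data.

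P-values set a difference between groups against the variation between pools, which was estimated with information shared across entries. Counting intervals cover counting error only. No replicates agreed within sampling noise. The members, gene lists and tests were chosen with earlier results of these data known. Named genes are the members, the 4 genes with the most counts of each list, entries within 50 kb and the 5 entries most like each member. Some genes of the lists are not reported here. Mag, Cldn19, Gjb1, Drp2, Nfasc, Gldn, Dag1, Hspa8 and the genes opposite the entries most like Nkiras2 were added after their values were seen.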

Additional observations from a re-analysis of the deposited data

How the results depend on the processing

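The log2 fold changes of the 3 members were computed under 17 other settings in each comparison, and in PINCH2 mutants against controls no member passed in any of them. In PINCH1 mutants against controls, the comparison behind the choice of members, Dnajc7 passed in 3 of them. These were no filter, at least 1 CPM in at least 3 libraries and the fit without control replicate 2, and nothing is read from these passes. In PINCH1 against PINCH2 mutants no member passed. Leaving out 1 library at a time turned the direction of small differences. In PINCH2 mutants against controls, Cnp ran from -0.14 to 0.0051, positive without PINCH2 mutant replicate 2. Dnajc7 ran from -0.56 to 0.0048 and the log2 ratio of Dnajc7 to Cnp from -0.49 to 0.074, both positive without control replicate 1. In PINCH1 against PINCH2 mutants, Cnp ran from -0.12 to 0.02 and Nkiras2 from -0.25 to 0.05. Under the alternatives that kept all libraries, Dnajc7 ran from -0.95 to -0.86 in PINCH1 mutants and from -0.38 to -0.28 in PINCH2 mutants against controls.

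The number of entries past the threshold moved more. For PINCH1 mutants against controls it was 3, against 6 with DESeq2, 1 with limma-voom, 15 with no filter, 16 with at least 1 CPM in at least 3 libraries, 1 with the 6 libraries compared, 1 at an adjusted p of 0.01, and 1 to 9 with 1 library left out. For PINCH2 mutants against controls it was 1, against 0 with limma-voom, with the 6 libraries compared and at an adjusted p of 0.01, and 0 to 1 with 1 library left out. For PINCH1 against PINCH2 mutants it was 4, against 10 with DESeq2, 20 with no filter, 27 with at least 1 CPM in at least 3 libraries, 8 with the 6 libraries compared, and 3 to 9 with 1 library left out. The cause was not tested.

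The replicate numbers were not shown to pair the libraries: same-numbered libraries had deviations from their group means correlated from -0.11 to 0.25. Differently numbered libraries ran from -0.20 to 0.14. The highest value, 0.25, was that of replicate 2 of PINCH2 mutants with replicate 2 of controls. With the replicate number as a block, 5 entries passed in PINCH1 mutants and 0 in PINCH2 mutants against controls, and 6 in PINCH1 against PINCH2 mutants. For the log2 ratios, the mean of same-numbered differences equals the difference of group means by arithmetic, so the block could not check them. Depth limits Nkiras2 most, with 70 to 135 counts per library.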
